A study of Mus musculus with 6 samples.

Results

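The PARP family and the ubiquitin ligase gene *Dtx3l* were examined in whole adult brain of mice without ADAR1 editing. The members were 10 of the 37310 genes of the count table and were chosen by gene symbol. They were *Parp1*, *Parp2*, *Parp3*, *Parp9*, *Parp10*, *Parp11*, *Parp12*, *Parp14*, *Zc3hav1*, which encodes the zinc-finger antiviral protein ZAP and is also known as PARP13, and *Dtx3l*. All 10 were among the 13649 genes tested. *Parp10* reached the minimum level only in the mutant group, so it was tested only through the group in which its values were higher.

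RNA was sequenced from 12-week-old male C57BL/6 mice, with 3 libraries per genotype from separate animals. One group was *Adar1* E861A/E861A *Ifih1*-/-, homozygous for a germline point mutation that abolishes editing by ADAR1 (hereafter E861A), and the other was *Adar1*+/+ *Ifih1*-/- (hereafter wild type). Both groups therefore lacked *Ifih1*, the gene of the double-stranded RNA sensor MDA5, and mice with intact *Ifih1* were not analysed here. The comparison addressed which transcripts differ in brain when editing by ADAR1 is lost throughout life and MDA5 is absent. A second editing enzyme, ADAR2, was not mutated, and the study reported that editing of known sites in brain was largely preserved.

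PARP enzymes use NAD+ to attach ADP-ribose to proteins and nucleic acids. PARP1 and PARP2 build chains of ADP-ribose at broken DNA, whereas most other members transfer a single unit, and PARP9 and ZAP are regarded as largely inactive as transferases on proteins. Several members, with DTX3L, belong to the genes that type I interferon switches on in many cell types, and these act in antiviral defence: ZAP binds viral RNA and directs its decay, and the complex of DTX3L and PARP9 modifies chromatin and viral proteins. In brain, PARP1 is the member best known from neurons, where its overactivation after injury drains NAD+.

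Libraries held from 26853488 to 38076753 counts, and mitochondrial genes took 11.02% to 13.79% of them. Levels below are in CPM, the counts of a gene scaled to the library's total. *Adar* itself was at 151.3 to 168.7 CPM in E861A and at 116.4 to 172.2 CPM in wild type, and a count per gene cannot show the point mutation. E861A replicate 1 stood apart, with pituitary transcripts summing to 438.6 CPM, against 1.299 to 2.521 CPM in wild type. Markers of microglia summed to 185.6 to 195.5 CPM in E861A and 192.7 to 200 CPM in wild type, neuronal markers to 5890 to 6012 against 5925 to 6086 CPM, and oligodendrocyte markers to 4341 to 4595 against 4253 to 4617 CPM. Astrocyte markers summed higher in E861A, at 5657 to 5932 against 5036 to 5315 CPM, and 7 of 8 had a positive fold change, led by *Slc1a2*. Most of that sum was *Slc1a2* alone, at a mean of 4165 CPM in E861A and 3630 CPM in wild type. The median log2 fold change of the 8 astrocyte markers was only 0.0254. Endothelial markers summed to 115.1 to 143.3 against 144.9 to 175.1 CPM with 0 of 7 higher in E861A, choroid plexus markers to 221.0 to 328.7 against 387.7 to 408.1 CPM with 1 of 5 higher, lymphocyte markers to 8.798 to 10.32 against 8.325 to 8.655 CPM with 1 of 2 tested higher, and blood markers to 21.28 to 28.40 against 23.47 to 37 CPM with 0 of 2 higher. No tested marker passed the edgeR test, but no pituitary marker and only 2 of 7 lymphocyte markers were tested. An unadjusted p under 0.05 was found for 3 of 7 endothelial, 2 of 5 choroid plexus and 2 of 8 neuronal markers. The same held for 1 of 10 microglial and 1 of 8 astrocyte markers, against 9.01% of all tested genes. None of the markers found in the counts was at 0 in every library, and the part of these differences in the results below was not tested.

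Stretches of promoter are shown for 3 members because interferon-activated factors act through short sites near gene starts. The interferon-stimulated response element (ISRE) was searched as GAAANNGAAA and the gamma-activated site (GAS) as TTCNNNGAA, on both strands, in RefSeq windows from 250 bases before to 50 bases after a start on GRCm38.p6. Of 32851 such windows, 3.44% held the ISRE letters and 8.3% the GAS letters. The table gave 8 windows for 7 members, and *Parp9*, *Parp10* and *Parp14* had no entry. The ISRE letters occurred in 1 of the 8 windows and the GAS letters in 1 of 8, in both cases the first window of *Parp11*. There the ISRE match lay on the opposite strand from 44 to 35 bases before the start and overlapped the GAS match, which lay from 37 to 29 bases before it. The 120 bases before that start (chr6:127446720-127446839, plus strand) are printed with both matches in capitals. Those of *Zc3hav1* (chr6:38354604-38354723, minus strand) and the 71 bases furthest before the start of *Dtx3l* (chr16:35939207-35939277, minus strand), the stretch of its window outside any annotated exon, are printed as windows without either match.
Parp11: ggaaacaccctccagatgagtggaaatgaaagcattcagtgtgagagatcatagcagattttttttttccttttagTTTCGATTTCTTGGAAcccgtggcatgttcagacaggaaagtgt
Zc3hav1: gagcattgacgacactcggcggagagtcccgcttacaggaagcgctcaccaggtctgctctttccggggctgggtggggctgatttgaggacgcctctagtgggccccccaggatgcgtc
Dtx3l: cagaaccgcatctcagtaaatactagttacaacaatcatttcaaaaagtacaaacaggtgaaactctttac
The absence of a match says only that these letters are not in these windows. A match in *Parp11* is a description of the letters, and the transcript values of *Parp11* are given below.

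Of the 10 members, 1 passed the test over all genes (edgeR quasi-likelihood, Benjamini-Hochberg adjusted p under 0.05). It was *Parp14*, which rose in E861A brain. Over all 13649 genes, 69 passed, which is 0.506%, and 56 passed as higher in E861A, which is 0.41%. In the paired fit, with a replicate block, 158 passed (103 higher in E861A), and *Parp14* was again the only member among them. The fold change was positive for 9 members, of which 8 did not pass the test, and for 49.5% of all tested genes. In 7 of 10 members all E861A libraries lay above all wild-type libraries, against 6.98% of all tested genes. *Parp10* is one of the 7 and was tested only through E861A. Among genes that reached the minimum level in both genotypes, a restriction chosen after seeing the data, the count was 6 of 9 members against 6.64% of 13321 genes. Without E861A replicate 1 it was 7 of 10 members, against 9.93% of tested genes. An unadjusted p under 0.05 was found for 5 of 10 members and for 9.01% of tested genes. The median log2 fold change was 0.32 over the 10 members and -0.001 over all tested genes.

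**Figure D1:**
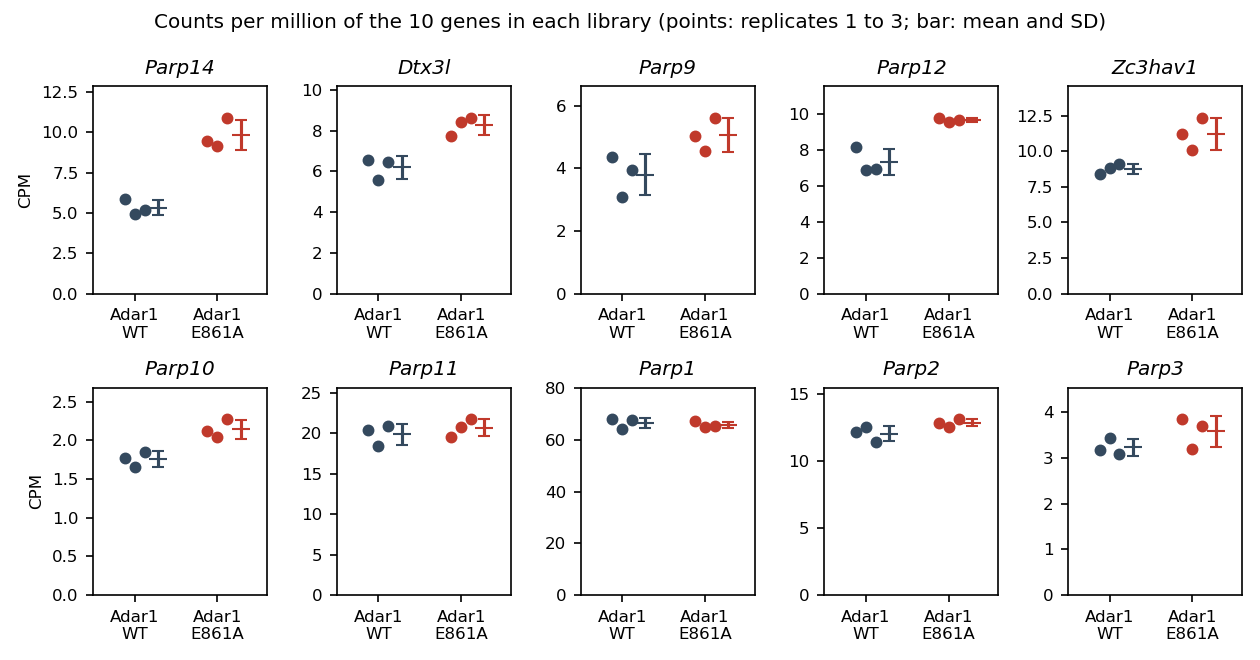
CPM of each member in each library, with wild type on the left and E861A on the right of each panel, points for replicates 1 to 3, and a bar for the mean and SD; each axis starts at 0. The groups are separated for *Parp14*, at 9.122 to 10.91 against 4.911 to 5.833 CPM, and overlap for *Parp1*, *Parp3* and *Parp11*.

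*Parp14* (ENSMUSG00000034422; chromosome 16, 35832960 to 35871630 on NCBIM37, minus strand) encodes a large transferase of single ADP-ribose units that carries macrodomains, which bind ADP-ribose, and that is known as a cofactor of STAT6. Its levels in replicates 1 to 3, the order used throughout, were 9.456, 9.122 and 10.91 CPM in E861A. The wild-type libraries were at 5.833, 4.911 and 5.210 CPM. Every E861A library was above every wild-type library, and the lowest E861A value was well clear of the highest wild-type value. The means were 9.83 ± 0.951 CPM in E861A and 5.318 ± 0.470 CPM in wild type (SD, n = 3). The difference was 1.85-fold (95% interval 1.58 to 2.16), or 0.88 ± 0.106 on the log2 scale (SE; edgeR adjusted p = 0.0005). By p-value it ranked 27 among the tested genes. The gene was read from 186 to 331 counts per library, and without E861A replicate 1 its log2 fold change was 0.92 ± 0.118 with an edgeR adjusted p of 0.00145. In whole tissue, a change in the number of cells that express a gene and a change in RNA per cell cannot be told apart.

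*Dtx3l* and *Parp9* encode partners of one complex. DTX3L is a ubiquitin ligase of the Deltex family, and PARP9 carries macrodomains. *Dtx3l* (ENSMUSG00000049502; chromosome 16, 35926597 to 35939237, minus strand) was at 7.724, 8.433 and 8.639 CPM in E861A and at 6.551, 5.568 and 6.470 CPM in wild type. *Parp9* (ENSMUSG00000022906; chromosome 16, 35938556 to 35972691, plus strand) was at 5.022, 4.547 and 5.623 CPM in E861A and at 4.368, 3.073 and 3.949 CPM in wild type. For both genes the E861A libraries were all above the wild-type libraries, but for *Parp9* the lowest E861A value was only 1.04 times the highest wild-type value. The estimate for *Dtx3l* was 1.34-fold (95% interval 1.15 to 1.56; log2 fold change 0.42 ± 0.102, SE) with an edgeR adjusted p of 0.139. That for *Parp9* was 1.33-fold (95% interval 1.08 to 1.64; 0.41 ± 0.140) with an edgeR adjusted p of 0.383. Neither passed the test over all genes. The genes lie head to head with starts 681 bases apart and share 458 bases of exon on opposite strands, so reads from this stretch are uncertain where the strand used in counting was not stated.

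*Parp12* (ENSMUSG00000038507; chromosome 6, 39036409 to 39068348, minus strand) and *Zc3hav1* (ENSMUSG00000029826; chromosome 6, 38255286 to 38304603, minus strand) encode zinc-finger PARPs, the former active as a transferase. *Parp12* was at 9.802, 9.563 and 9.682 CPM in E861A and at 8.182, 6.881 and 6.946 CPM in wild type. *Zc3hav1* was at 11.19, 10.11 and 12.36 CPM in E861A and at 8.403, 8.824 and 9.075 CPM in wild type. The E861A libraries were above the wild-type libraries for both genes, and for *Parp12* they differed little from each other, with an SD of 0.120 CPM against 0.733 CPM in wild type. The estimate was 1.32-fold for *Parp12* (95% interval 1.15 to 1.52; log2 fold change 0.40 ± 0.0924, SE), with an edgeR adjusted p of 0.102. For *Zc3hav1* it was 1.28-fold (95% interval 1.11 to 1.47; 0.35 ± 0.0930), with an edgeR adjusted p of 0.209. *Zc3hav1* has 3 coding transcripts in the annotation, and counts per gene do not separate the long and short forms of ZAP. With edgeR's likelihood ratio test in place of the quasi-likelihood test, *Parp12* (adjusted p = 0.0110) and *Dtx3l* (adjusted p = 0.0204) passed and *Zc3hav1* (adjusted p = 0.0507) did not. By that test 139 of all 13649 genes passed.

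*Parp10* (ENSMUSG00000063268; chromosome 15, 76061604 to 76073871, minus strand) and *Parp11* (ENSMUSG00000037997; chromosome 6, 127396858 to 127444259, plus strand) encode further transferases of single ADP-ribose units. *Parp10* was the member with the fewest counts, from 61 to 74 per library. It was at 2.113, 2.039 and 2.272 CPM in E861A and at 1.769, 1.655 and 1.849 CPM in wild type, without overlap. The log2 fold change was 0.28 ± 0.146 (SE; 95% interval -0.03 to 0.60) with an edgeR adjusted p of 0.586. It shares 205 bases of exon with *Plec* on the same strand, a gene with 7644 to 12414 counts per library. *Parp11* was at 19.60, 20.72 and 21.75 CPM in E861A and at 20.37, 18.41 and 20.90 CPM in wild type. The groups of *Parp11* overlapped, and its log2 fold change was 0.06 ± 0.0696 (SE; 95% interval -0.09 to 0.21; edgeR adjusted p = 0.835).

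The 7 interferon-induced genes were also taken as a group (*Parp9*, *Parp10*, *Parp11*, *Parp12*, *Parp14*, *Zc3hav1* and *Dtx3l*). All 7 estimates were positive, against 49.5% of all tested genes, and 1 passed the test, against 0.506%. The median log2 fold change of the 7 was 0.402, beside -0.001 over all tested genes. Without *Parp10*, which reached the minimum level only in E861A, the median of the other 6 was 0.408. Without E861A replicate 1 the median of the 7 was 0.405. Relative to the wild-type mean of each gene, the mean log2 level of the 7 genes was 0.37, 0.34 and 0.50 in the E861A libraries, compared with 0.08, -0.12 and 0.03 in the wild-type libraries. E861A replicate 3 was highest and wild-type replicate 2 lowest. Within this group the log2 estimates ranged from 0.06 for *Parp11* to 0.88 for *Parp14*.

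**Figure D2:**
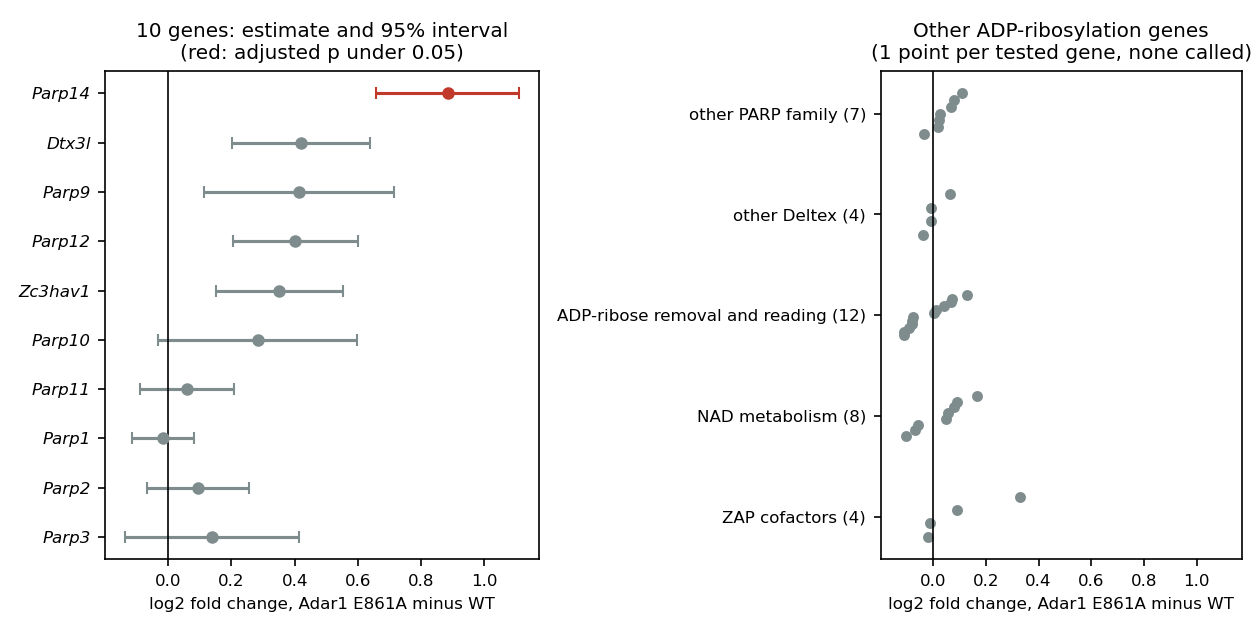
Log2 fold change of E861A against wild type. On the left, each member with its 95% interval, in red where the adjusted p is under 0.05; on the right, 1 point for each of the 35 other tested ADP-ribosylation genes, with the number tested in parentheses. *Parp14* is the only red point, at 0.88, the intervals of *Dtx3l*, *Parp9*, *Parp12* and *Zc3hav1* lie above 0, and *Trim25* is the ZAP cofactor at 0.33.

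*Parp1*, *Parp2* and *Parp3* act in the repair of DNA breaks. *Parp1* (ENSMUSG00000026496; chromosome 1, 182499086 to 182531384, plus strand) was at 67.23, 64.96 and 65.39 CPM in E861A and at 68.08, 64.32 and 67.61 CPM in wild type. The groups overlapped, and with 1756 to 2463 counts per library the 95% interval of the fold was narrow, from 0.924 to 1.06 (edgeR adjusted p = 0.942). *Parp2* (ENSMUSG00000036023; chromosome 14, 51427621 to 51440975, plus strand) was at 12.89, 12.59 and 13.15 CPM in E861A and at 12.19, 12.53 and 11.43 CPM in wild type. The groups of *Parp2* just missed each other, with the lowest E861A value 1.01 times the highest wild-type value, and the log2 fold change was 0.10 ± 0.0752 (SE; edgeR adjusted p = 0.740). *Parp3* (ENSMUSG00000023249; chromosome 9, 106372653 to 106379280, minus strand) was at 3.845, 3.197 and 3.687 CPM in E861A and at 3.179, 3.440 and 3.081 CPM in wild type. Its groups overlapped, and its log2 fold change was 0.14 ± 0.128 (SE; edgeR adjusted p = 0.787). The median log2 fold change of these 3 genes was 0.10, and 0 of 3 passed the edgeR test or had an unadjusted p under 0.05.

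To compare levels between genes, CPM were divided by exon length in kilobases. In wild type, the mean level was highest for *Parp1*, at 17.34 CPM per kb, followed by *Parp2* at 6.739, *Parp11* at 3.478 and *Parp12* at 1.836 CPM per kb. The constitutive repair genes *Parp1* and *Parp2* thus stood above every interferon-induced member in both groups. *Zc3hav1* was next in wild type at 1.345 CPM per kb, then *Dtx3l* at 1.083, *Parp3* at 0.8741, *Parp9* at 0.7793, *Parp14* at 0.5714 and *Parp10* at 0.4111 CPM per kb. *Parp3* and *Parp9* overlapped between libraries, whereas all other neighbours in the wild-type order were separated. In E861A the first 6 places were held by the same genes in the same order. *Parp14* took place 7 at 1.056 CPM per kb, against place 9 in wild type, and it overlapped with *Parp9* at 1.039 CPM per kb, which in turn overlapped with *Parp3* at 0.9668 CPM per kb. *Parp10* was last at 0.5009 CPM per kb.

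**Figure D3:**
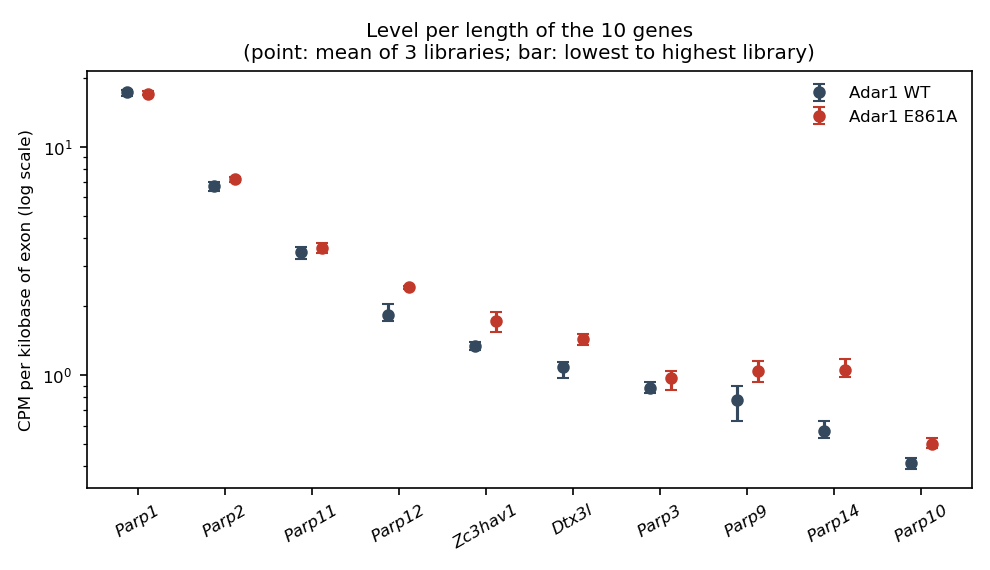
CPM per kilobase of exon, on a log scale, for each member in wild type (dark) and E861A (red), ordered by the wild-type level; points are means of 3 libraries and bars run from the lowest to the highest library. The wild-type range of *Parp14*, 0.5277 to 0.6268 CPM per kb, lies below that of *Parp9*, while its E861A range, 0.9802 to 1.172, overlaps with it.

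*Parp14*, *Dtx3l* and *Parp9* lie side by side on chromosome 16, with 54966 bases between *Parp14* and *Dtx3l*. Whether these neighbours differed in the size of their response was compared by the log2 ratio of their CPM within each library, for 3 pairs. The *Parp14* to *Dtx3l* log2 ratio was 0.29, 0.11 and 0.34 in E861A and -0.17, -0.18 and -0.31 in wild type. These ratios are of CPM not divided by exon length, so their sign does not rank the genes by level. Per kilobase of exon, *Parp14* had the lower mean in both genotypes. It was at 0.5714 against 1.083 CPM per kb for *Dtx3l* in wild type, and at 1.056 against 1.444 CPM per kb in E861A. The *Parp14* to *Parp9* log2 ratio was 0.91, 1.00 and 0.96 in E861A and 0.42, 0.68 and 0.40 in wild type, again without overlap. The ratio of *Dtx3l* to *Parp9* was 0.62, 0.89 and 0.62 in E861A and 0.59, 0.86 and 0.71 in wild type, which overlapped. The differences between genotypes on the log2 scale were 0.47 for *Parp14* to *Dtx3l* and 0.46 for *Parp14* to *Parp9*, each with p = 0.1 in an exact two-sided permutation test, the smallest p that 3 against 3 libraries allow (adjusted over the 3 pairs, p = 0.15). For *Dtx3l* to *Parp9* the difference was -0.00769 (exact permutation test, p = 1.0, also when adjusted), and its sign changed when single libraries were left out.

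**Figure D4:**
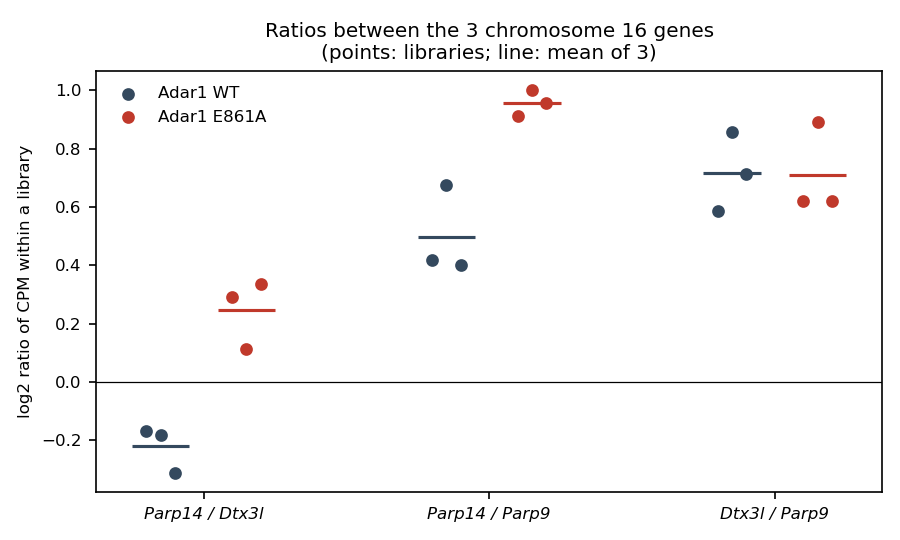
Log2 ratio of CPM within a library for each pair of the chromosome 16 genes, with points for libraries and a line for the mean of 3. The mean ratio of *Parp14* to *Dtx3l* is -0.22 in wild type and 0.25 in E861A, that of *Parp14* to *Parp9* is 0.50 and 0.96, and that of *Dtx3l* to *Parp9* is 0.72 and 0.71.

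On its other side, the tested gene nearest to *Parp14* was *Hspbap1*, 4427 bases away. It was at 5.542, 5.126 and 5.400 CPM in E861A and at 6.330, 4.937 and 5.742 CPM in wild type, which overlapped, and its log2 fold change was -0.08 ± 0.113 (SE; edgeR adjusted p = 0.864). Within 500000 bases of *Parp14*, 11 other genes were tested, none of them passed by edgeR, 2 had an unadjusted p under 0.05 (*Dtx3l* and *Parp9*), and their median log2 fold change was 0.04. *Parp12* and *Zc3hav1* are 731805 bases apart on chromosome 6, and 0 of the 11 and 9 genes tested within 500000 bases of each passed or had an unadjusted edgeR p under 0.05.

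The genes whose profile over the 6 libraries was nearest to that of *Parp14* were *Samd9l*, *Gbp9* and *Rnf213*, all on other chromosomes. Likeness was the root mean square difference of log2 CPM relative to the wild-type mean, and it was 0.102, 0.108 and 0.121 for these genes. *Samd9l* was at 12.78, 11.66 and 14.78 CPM in E861A and at 7.519, 7.564 and 7.423 CPM in wild type. *Rnf213*, a large ubiquitin ligase gene, was at 46.35, 45.22 and 51.09 CPM in E861A and at 29.85, 28.39 and 27.39 CPM in wild type. *Gbp9*, an interferon-induced GTPase gene whose family members may share reads, was at 3.983, 4.327 and 4.506 CPM in E861A and at 2.820, 2.364 and 2.185 CPM in wild type. All passed the test, with log2 fold changes of 0.80 ± 0.0972 for *Samd9l*, 0.74 ± 0.0608 for *Rnf213* and 0.80 ± 0.136 for *Gbp9* (SE; edgeR adjusted p of 0.000538, 1.3e-05 and 0.0121). The likeness was taken over the same libraries and keeps the genotype difference. That these genes passed therefore follows largely from how they were picked and is no separate result. Among 13648 genes ordered by this likeness to *Parp14*, *Parp9* was at place 56, *Dtx3l* at 59, *Parp12* at 70, *Zc3hav1* at 118 and *Parp10* at 200. The remaining members were further away, with *Parp3* at place 1195, *Parp2* at 1916, *Parp11* at 2934 and *Parp1* at 7167. This order largely restates the fold changes given above and is no separate result, and *Parp10* was tested only through E861A.

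Other genes of ADP-ribosylation, with genes of NAD metabolism and cofactors of ZAP, were taken from 5 lists of 40 genes, of which 35 were tested. None passed the edgeR test, and 1 had an unadjusted p under 0.05 (2.86%, against 9.01% of all tested genes). Positive estimates were 20 of 35 (57.1%, against 49.5% of all tested genes), with log2 estimates from -0.11 to 0.33 around a median of 0.02. The other PARP genes, 7 tested of 8, ran from *Tiparp* at -0.04 ± 0.0735 (edgeR adjusted p = 0.915) to *Zc3hav1l* at 0.11 ± 0.106 (adjusted p = 0.794). *Tiparp* encodes a transferase induced by the aryl hydrocarbon receptor. The other Deltex ligases, 4 of 4 tested, ran from *Dtx1* at -0.04 ± 0.0537 to *Dtx2* at 0.06 ± 0.136. Genes that remove or read ADP-ribose, 12 tested of 13, ran from *Xrcc1*, the scaffold of single-strand break repair, at -0.11 ± 0.0851 to *Chfr* at 0.13 ± 0.0805. Genes of NAD metabolism, 8 tested of 11, ran from the NAD synthesis gene *Nmnat1* at -0.10 ± 0.118 to the NAD-consuming *Cd38* at 0.17 ± 0.120. The 4 cofactors of ZAP ran from the helicase gene *Ddx17* at -0.02 ± 0.0425 to *Trim25* at 0.33 ± 0.0889.

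*Trim25*, a ubiquitin ligase required for ZAP activity and itself induced by interferon, had the largest estimate of the 35. It was at 9.802, 9.591 and 9.757 CPM in E861A and at 7.519, 8.247 and 7.395 CPM in wild type. The groups did not overlap, and the edgeR p of 0.00232 became 0.211 after adjustment, so that *Trim25*, like *Zc3hav1*, did not pass.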

How the data were processed

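Total RNA of whole brain was depleted of ribosomal RNA and sequenced as 75 bp paired reads from a stranded kit. The submitters' processing notes name Trimmomatic 0.36, STAR 2.5.2a, edgeR and mm9 (NCBIM37). The authors deposited raw counts per gene, 1 column per library. The authors' deposited CPM matched these counts within 0.001 for 13891 of 13891 genes, once the counts were scaled to the total of those genes. The CPM given here are scaled to the total over all 37310 genes and so are not the deposited values. Their columns of log2 fold change, FDR and average expression were not used. The strand counted was not stated, so overlapping genes are uncertain. GENCODE vM1 held all 37310 identifiers and gave the gene coordinates.

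In R 4.3.3, edgeR 4.0.16 was run with TMM factors (0.985 to 1.021) on genes that reached 2 CPM in each of the 3 libraries of 1 genotype or of both. SEs belong to log2 fold changes, and p-values were adjusted over all 13649 genes. Alternatives used DESeq2 1.42.0, limma 3.58.1, other filters and scalings, the replicate block and single omissions.

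Deviations from the genotype mean correlated weakly between same-numbered libraries (r = 0.225, 0.336 and 0.116). Differently numbered pairs ran from -0.259 to 0.0505. Centring on the mean of each genotype ties these values to each other, and the source of a pairing was not stated. All values given are nevertheless from the fit without the block and from unpaired exact tests, unless the replicate block is named. Members and lists were chosen with earlier results of these data known. Genes outside the members were named as the largest and smallest estimate of a list, the 3 nearest profiles to a called member or the nearest tested neighbours.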

Additional observations from a re-analysis of the deposited data

How the results depend on the processing

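*Parp14* passed in all 15 alternatives, with log2 fold changes from 0.80 to 0.95 and adjusted p from 8.46e-14 to 0.0102. No member changed sign in any of them, and none of the 35 genes of the ADP-ribosylation, NAD metabolism and ZAP cofactor lists passed in any. The members passing were 3 with the likelihood ratio test (*Parp12*, *Parp14* and *Dtx3l*) and 4 without a filter, where *Zc3hav1* passed too (adjusted p = 0.0270) and the test used only the spread shared by all genes. *Parp14* alone passed when single libraries were left out, giving 1 member each time. Of all genes tested, 69 of 13649 passed, against 139 of 13649 with the likelihood ratio test and 376 of 29282 without a filter. The count was 110 of 19366 with filterByExpr and 158 of 13649 (103 higher in E861A) with the replicate block. The replicate block changed no call among the members, with *Parp12* at an adjusted p of 0.0508. Leaving out single libraries gave 42 (without E861A replicate 3) to 113 genes (without E861A replicate 2), and 108 without wild-type replicate 2. The same omissions, chosen for the ratios after seeing the data, gave log2 differences of 0.422 to 0.535 for *Parp14* to *Dtx3l*, 0.411 to 0.549 for *Parp14* to *Parp9*, and -0.098 to 0.062 for *Dtx3l* to *Parp9*, which turned positive without E861A replicate 1 (0.0371), E861A replicate 3 (0.0378) or wild-type replicate 2 (0.062). The cause was not tested. *Parp10* had the fewest counts, 61 to 74 per library, and its 95% interval ran from -0.03 to 0.60.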
